A study of Mus musculus with 18 samples.

Results

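The 7 genes described here are Bhmt, Bhmt2, Mtr, Mat2a, Ahcy, Cbs and Cth, which encode enzymes that make, use or remove homocysteine and methionine. They were found by symbol among the 20985 genes of the deposited expression table, and all 7 were present. The set was chosen by the measured Bhmt levels, which were lower in every group that received STZ than in the control group. The Bhmt differences from control are therefore given as a description, with no test. The other 6 genes were included as pathway neighbours and not for their values. Of the 7 genes, 5 passed the filter on low values (at least 1 FPKM in at least 3 of 18 libraries), and these were Bhmt, Mtr, Mat2a, Cbs and Cth.

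RNA was sequenced from testes of ICR mice, an outbred stock, aged 10 weeks. There were 6 groups of 3 libraries. The control group carried no named agent, and mice of the AOS group were given alginate oligosaccharide (AOS) at 10 mg/kg. Streptozotocin (STZ), which kills the insulin-producing cells of the pancreas and is widely used to make rodents diabetic, was the sole agent of the STZ group. The STZ+AOS group received both agents, with AOS at 10 mg/kg. The remaining groups received STZ and a faecal microbiota transplant, named AOS 10 mg/kg-FMT in one (the AOS transplant group) and control-FMT in the other (the control transplant group). Whether the libraries of 1 group came from different animals is not stated, so a p-value here measures only the spread between libraries, which may be partly technical. No blood glucose value or dose of STZ was given. The late spermatid marker list, a check of the tissue, summed to 26887 FPKM or more in every library. Libraries were of whole testis, in which fewer cells of a type and less RNA per cell cannot be told apart.

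Homocysteine stands at a branch point of sulfur metabolism. It can be methylated back to methionine, either by betaine-homocysteine methyltransferase (Bhmt), which takes the methyl group from the choline product betaine, or by methionine synthase (Mtr), which takes it from methyltetrahydrofolate. Methionine is then made into S-adenosylmethionine, the methyl donor of most methylation reactions, by methionine adenosyltransferase, whose catalytic subunit outside the liver is Mat2a. Methyl transfer leaves S-adenosylhomocysteine, which Ahcy splits to give homocysteine again. Alternatively, Cbs and Cth pass homocysteine on to cysteine. Bhmt is best known as an abundant enzyme of liver and kidney, and Bhmt2 is a related enzyme that uses S-methylmethionine as methyl donor.

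The 7 genes differed widely in level. On the FPKM scale, which is per transcript length, Mat2a (40.21 to 99.5 over 18 libraries) and Bhmt (8.7 to 65.35) were the most abundant, with means at the 89.4th and 85.6th percentile of all genes in the table. Mtr ranged from 3.05 to 7.84 FPKM and Cth from 1.22 to 3.08. Cbs (0.19 to 1.13), Bhmt2 (0.38 to 1.25) and Ahcy (0.15 to 0.77) were low in all libraries.

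**Figure D1:**
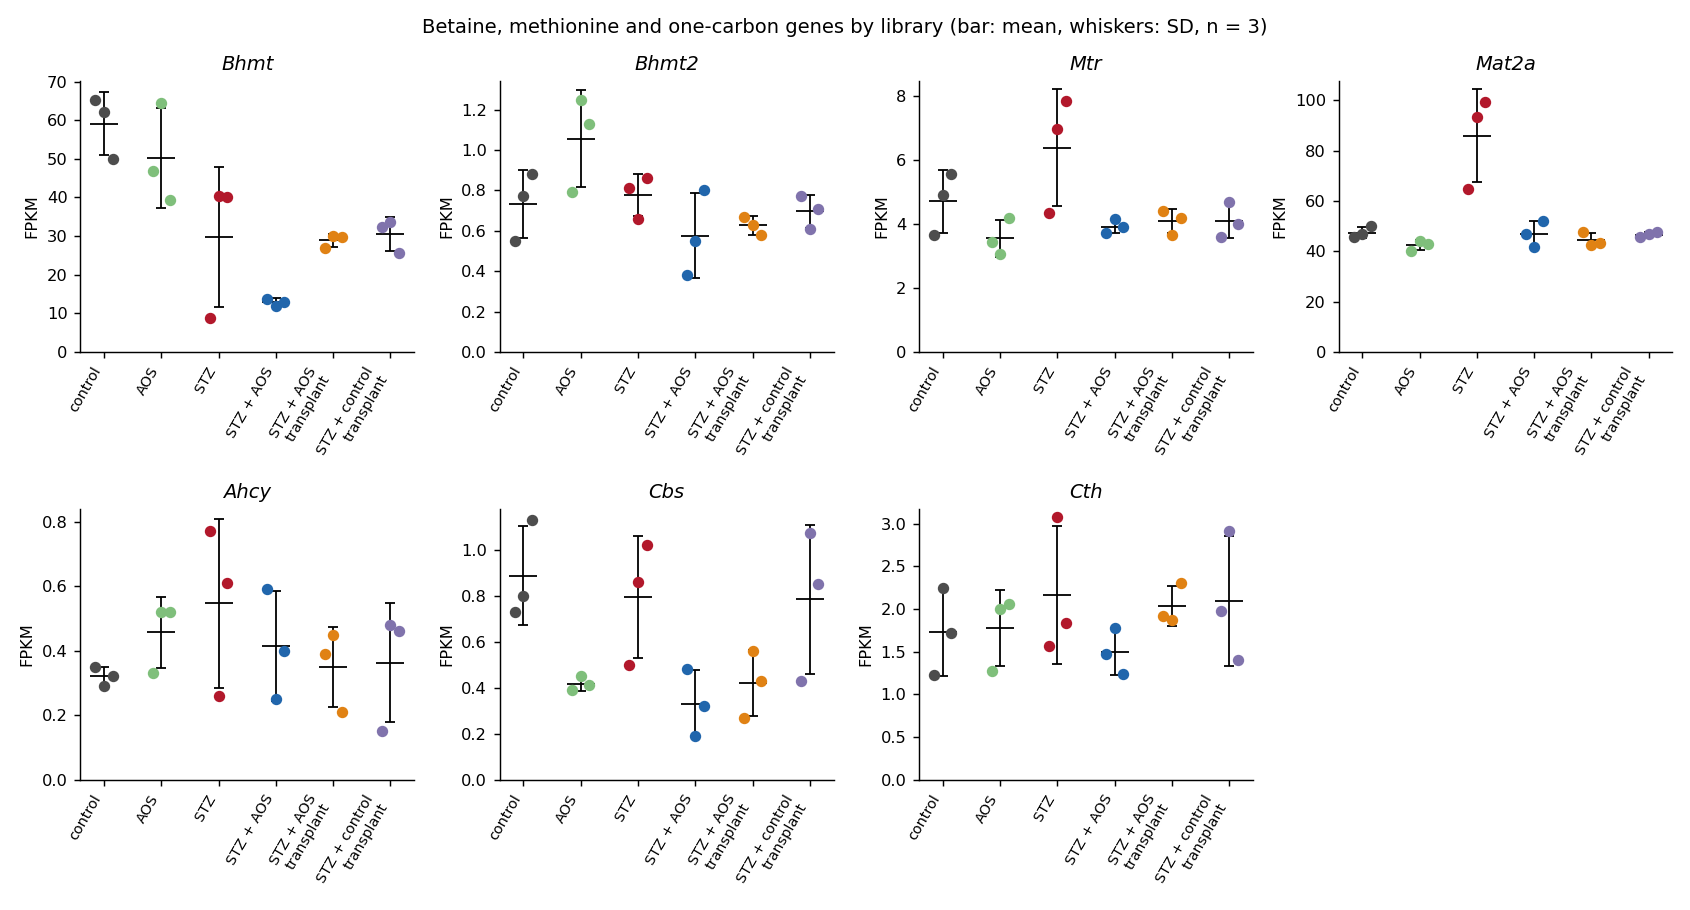
Expression of the 7 genes in each of 18 libraries (FPKM on a linear axis from 0, one point per library, horizontal bar for the group mean and whiskers for the SD of 3 libraries). Bhmt is highest in the control group, at a mean of 59.1, and lowest with STZ+AOS, at 12.9, while Mat2a is high in the STZ group alone, at 86.0 against group means of 42.4 to 47.4 elsewhere.

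Bhmt and Bhmt2 are neighbours on the minus strand of mouse chromosome 13, Bhmt at chr13:93616675-93637961 and Bhmt2 at chr13:93655720-93674302 (GRCm38, GENCODE M21), with 17758 bases between them. Their coding sequences, of 1224 and 1092 bases, were 75.3% identical where aligned. The promoters of these neighbours and of Mat2a, the member with the clearest test result, are shown because the genes differed in level or pattern. Each runs 5′ to 3′ along the gene's strand from 250 bases before to 50 bases after the RefSeq start site (GRCm38.p6). They lie at chr13:93637709-93638008 for Bhmt, chr13:93674253-93674552 for Bhmt2 and chr6:72439507-72439806 for Mat2a. Capitals mark matches, on either strand, to any of 6 motifs: CAAGGTCA (the site bound by the steroidogenic factor that Nr5a1 encodes), TATAAA (the core of the TATA box), CCAAT (the site bound by nuclear factor Y), GGGCGG (the site bound by Sp1 proteins), CACGTG (an E-box, bound by Myc and Usf proteins) and TGACGTCA (the cyclic AMP response element). No match of one motif overlapped a match of another.
Bhmt: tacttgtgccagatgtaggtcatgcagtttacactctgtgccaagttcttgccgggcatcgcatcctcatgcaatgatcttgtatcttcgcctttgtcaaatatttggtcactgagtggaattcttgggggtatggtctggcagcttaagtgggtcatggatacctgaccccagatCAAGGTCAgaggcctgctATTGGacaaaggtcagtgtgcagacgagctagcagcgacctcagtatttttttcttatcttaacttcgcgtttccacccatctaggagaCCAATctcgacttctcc
Bhmt2: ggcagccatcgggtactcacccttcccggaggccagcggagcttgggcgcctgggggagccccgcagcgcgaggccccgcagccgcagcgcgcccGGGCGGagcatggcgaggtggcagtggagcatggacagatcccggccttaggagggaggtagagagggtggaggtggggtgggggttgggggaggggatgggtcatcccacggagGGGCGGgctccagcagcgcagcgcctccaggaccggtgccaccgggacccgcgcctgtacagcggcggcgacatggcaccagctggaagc
Mat2a: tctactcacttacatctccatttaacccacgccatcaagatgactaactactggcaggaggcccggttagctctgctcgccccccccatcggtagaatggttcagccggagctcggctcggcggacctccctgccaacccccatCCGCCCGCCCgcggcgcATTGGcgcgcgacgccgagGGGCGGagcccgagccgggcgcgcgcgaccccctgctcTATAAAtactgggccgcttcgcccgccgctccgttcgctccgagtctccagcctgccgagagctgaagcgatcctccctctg
The Bhmt promoter held CAAGGTCA once, beginning 74 bases before the RefSeq start site, and CCAAT in both orientations. In GENCODE M21 the Bhmt gene starts earlier, at base 93637961 inside this window, so by that annotation the CAAGGTCA match lies within the gene. CAAGGTCA was found in 1.6% of 32851 promoter windows of the same length, and CCAAT in 37.4%. The Bhmt2 window held no CAAGGTCA and 2 copies of GGGCGG, a motif in 35.7% of promoters. Mat2a had TATAAA at position -32, a motif in 13.6% of promoters, with 1 match to CCAAT and 3 matches to GGGCGG, 2 of which share bases. The windows also differed in base composition, with 8 CpG and 48% GC in Bhmt, 26 CpG and 73.7% GC in Bhmt2, and 34 CpG and 67.0% GC in Mat2a, against a median of 7 CpG over all windows. CACGTG (7.2% of promoters) and TGACGTCA (1.8%) were not in these 3 windows. These are letter matches and show no binding.

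Bhmt was lower in all 4 groups given STZ than in the control group. In the control libraries Bhmt was at 65.35, 62.04 and 49.97 FPKM, and in the AOS libraries at 46.93, 64.57 and 39.31. The STZ libraries gave 8.7, 40.48 and 40.1 FPKM, so replicate 1 was far below the other two. With STZ+AOS Bhmt was at 13.75, 11.79 and 13.05 FPKM, a narrow range below every library of every group except STZ replicate 1.

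Bhmt was at 26.86, 29.95 and 29.88 FPKM in the AOS transplant group and at 32.34, 33.65 and 25.51 in the control transplant group. These 6 libraries lay between the STZ+AOS group and the groups without STZ, and the transplant groups overlapped each other. As group means, Bhmt stood at 59.1 ± 8.1 FPKM (SD, n = 3) in the control group and 50.3 ± 13 with AOS, or 85.0% of control. The means were 29.8 ± 18.2 with STZ (50.3% of control), 12.9 ± 0.993 with STZ+AOS (21.8%), 28.9 ± 1.76 with the AOS transplant (48.9%) and 30.5 ± 4.37 with the control transplant (51.6%). In the order of means, control and AOS overlapped, as did the control transplant, STZ and AOS transplant groups, and STZ+AOS lay apart from its neighbour in the order. No library given STZ reached the lowest control library. Among all tested genes, groups lay apart in this downward direction for 11.5% with STZ, 8.86% with STZ+AOS, 10% with the AOS transplant and 5.71% with the control transplant, and nothing is read from this since the choice used these levels. STZ replicates 2 and 3 stood just above the lowest AOS library.

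In log2(FPKM + 1), with a standard error of 0.38 from the model of all 18 libraries, the Bhmt differences from control were -1.23 with STZ, -2.11 with STZ+AOS, -1.0 with the AOS transplant and -0.93 with the control transplant. With AOS alone the difference was -0.25. The model shares 1 spread among groups that differed in theirs. In fits of only the groups compared the standard error was 0.531 with STZ and 0.103 with STZ+AOS. It was 0.1 with the AOS transplant, 0.127 with the control transplant and 0.178 with AOS alone. Without STZ replicate 1 the STZ difference was -0.53, so this library carried much of it. Between STZ+AOS and AOS alone, groups that share the AOS dose, Bhmt differed by -1.86.

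**Figure D2:**
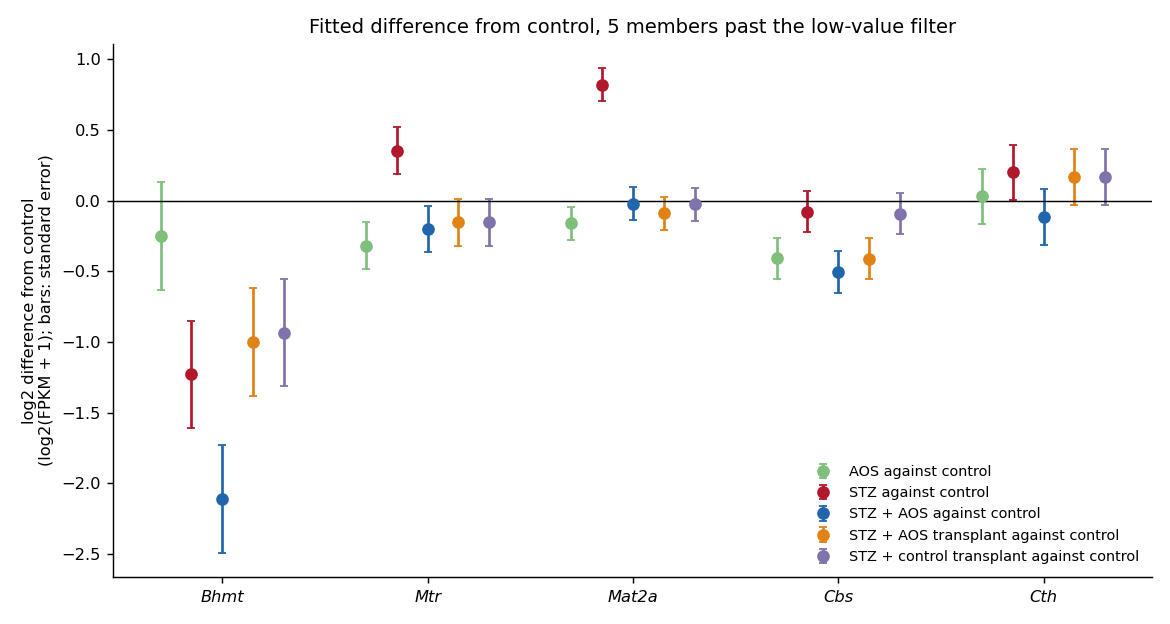
Fitted differences from control for the 5 genes that passed the low-value filter (log2(FPKM + 1), bars are the standard error from the model of 18 libraries). The 4 groups given STZ lie between -2.11 and -0.93 for Bhmt, whereas for Mat2a the STZ group alone stands away from 0, at 0.82.

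The comparisons among the groups given STZ were not used to choose Bhmt, but the choice used the levels of these same libraries. Their p-values are therefore given as a description. Bhmt was 0.88 lower on the log2 scale with STZ+AOS than with STZ, and this did not pass the test across all genes (limma, adjusted p = 0.0614). With only those groups fitted the adjusted p was 0.211. The STZ group's range enclosed all 3 STZ+AOS libraries. Without STZ replicate 1, the other 2 STZ libraries were 1.58 above STZ+AOS on this scale (adjusted p = 1.01e-06). That fit drops the lowest Bhmt library, and the standard error fell from 0.381 to 0.165, so nothing is read from its p. The difference shrank to -0.53 without STZ replicate 2 (adjusted p = 0.279), to -0.54 without STZ replicate 3 (adjusted p = 0.287) and to -0.53 under median centring (adjusted p = 0.189). Against STZ, Bhmt differed by 0.23 in the AOS transplant group (adjusted p = 0.631) and by 0.30 in the control transplant group (adjusted p = 0.534). Without STZ replicate 1 these differences turned to -0.47 (adjusted p = 0.0217) and -0.40 (adjusted p = 0.0473), and again nothing is read from the p-values of that fit. The transplant groups differed from each other by -0.07 (adjusted p = 0.995), or 0.006 without control transplant replicate 2.

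Reads of Bhmt could be shared with close copies. Of the 50-base stretches of its transcripts, 59.6% also occur in another gene, 56.9% in Gm5096 and 31.8% in the pseudogene Bhmt-ps1. Neither of those has a row in the deposited table, and how reads with several matches were handled is not given in the sources used here. Bhmt2 shared 5.0% of its stretches with other genes, and Bhmt shared 0.4% of its own with Bhmt2.

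Bhmt2 stayed low while Bhmt varied. It was at 0.733 ± 0.168 FPKM (SD, n = 3) in the control group, 1.06 ± 0.239 with AOS, 0.777 ± 0.104 with STZ, 0.577 ± 0.211 with STZ+AOS, 0.627 ± 0.0451 with the AOS transplant and 0.697 ± 0.0808 with the control transplant. Every pair of neighbours in the order of means overlapped, and only 2 libraries, both AOS, reached 1 FPKM. In the model without the low-value filter, the STZ effect on Bhmt2 differed with and without AOS by -0.42 (adjusted p = 0.0455), while neither effect passed alone. Over 18 libraries Bhmt2 and Bhmt had a Pearson r of 0.38, a description over libraries that share groups.

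The genes on either side of this pair were all lower than Bhmt in the control group. Homer1, which encodes a scaffold protein of synapses, lay between 3.59 and 5.44 FPKM, and Jmy, which encodes a regulator of actin, between 7.67 and 9.92. Dmgdh, the enzyme that acts on dimethylglycine, the product left when Bhmt uses betaine, starts 130 bases from Bhmt2 and was at 0.04 to 0.18 FPKM. Arsb, a lysosomal sulfatase gene, lay between 1.79 and 6.69 FPKM.

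Markers of Leydig cells, the steroid-producing cells of the testis, followed Bhmt in part. All 9 listed Leydig genes were above 1 FPKM, and none was at 0. Their summed level was 3555 to 4070 FPKM in control, 2603 to 3547 with AOS, 1808 to 12847 with STZ, 2001 to 2555 with STZ+AOS, 3169 to 3604 with the AOS transplant and 2932 to 4005 with the control transplant. The lowest sum belonged to the STZ group, as did the highest. Insl3 made up most of these sums. Without it they were 626 to 726 FPKM in control, 484 to 617 with AOS and 234 to 1408 with STZ. They were 173 to 357 with STZ+AOS, now the lowest, 413 to 590 with the AOS transplant and 512 to 595 with the control transplant.

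Averaged in log2 over the 9 genes and set to 0 at the control mean, the Leydig list was at -1.19 in STZ replicate 1 and at 0.73 and 1.12 in replicates 2 and 3. It was at -0.79, -1.47 and -0.67 in the STZ+AOS libraries. STZ replicate 1 and the STZ+AOS group, which held the lowest Bhmt values, were thus also the lowest on this list. Bhmt minus the list mean lay between -0.28 and 0.16 in control, between -0.15 and 0.21 with AOS and between -1.66 and -1.26 with STZ. It ran from -1.42 to -0.76 with STZ+AOS, from -0.80 to -0.34 with the AOS transplant and from -0.97 to -0.51 with the control transplant. On this relative scale all 12 STZ-treated libraries lay below all 6 others, and the 3 STZ libraries lay close together. Nothing is read from this separation, since the choice used these Bhmt levels. The part of Leydig cells in the Bhmt levels was not tested.

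**Figure D3:**
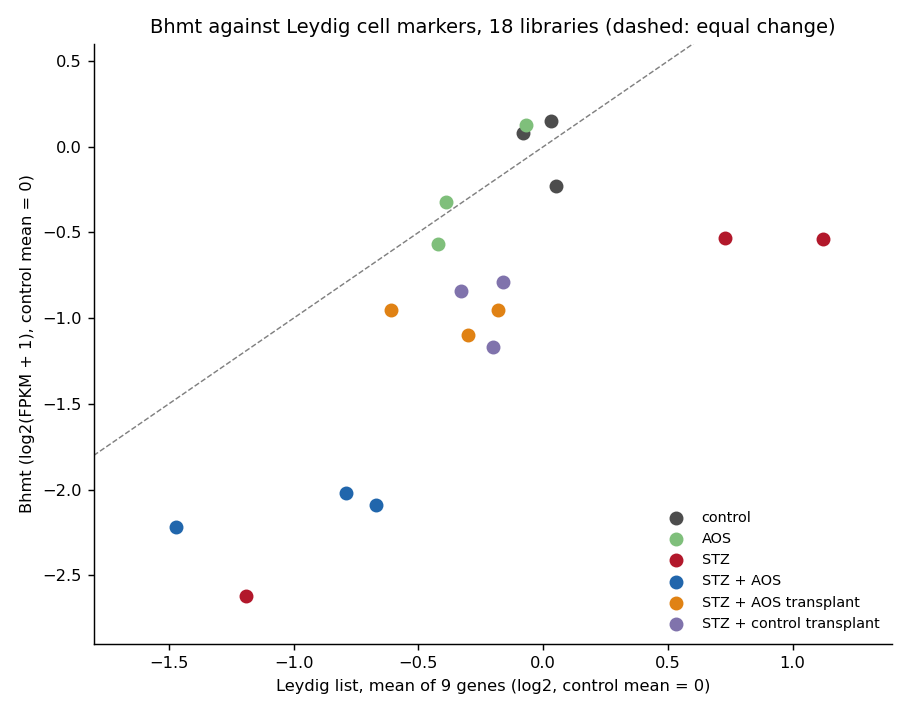
Bhmt against the mean of 9 Leydig cell genes in 18 libraries (both axes log2(FPKM + 1) relative to the control mean, one point per library, dashed line for equal change). The 6 libraries without STZ lie near the line and the 12 with STZ lie below it, by 0.34 to 1.66.

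Of the 9 Leydig genes, 1 was called between STZ and control, Nr5a1 (1.23 higher, adjusted p = 8.8e-05), and the list median was 0.07. In that contrast 55.2% of all genes were called. Nr5a1 stood at 258% of its control mean with STZ, where the 12 tested Sertoli genes lay between 166% and 330% of theirs. It was at 98.8% to 116% in the other groups given STZ. Which cells carried the Nr5a1 change was not tested. Between STZ+AOS and control the Leydig list median was -0.94 and none of its genes was called, where 0.0424% of all genes were. Between STZ+AOS and STZ, 6 of 9 passed the test as lower, where 43.1% of all genes did, and the median was -1.24. Among the 6 were Cyp11a1, the first enzyme of steroid synthesis (-1.60, adjusted p = 0.0243), and Star, which carries cholesterol into mitochondria (-1.24, adjusted p = 0.0152). The libraries also differed in their Sertoli cell markers, which summed to 780 to 856 FPKM in control and 1899 to 2507 with STZ. All 12 tested Sertoli genes were called higher with STZ, with a median of 1.19, and all 10 late spermatid genes lower, with a median of -0.55. Over all 14164 genes 6118 were called higher and 1705 lower. Of the 8 hepatocyte markers, whose home tissue is rich in Bhmt, the sums were 1.54 to 3.3 FPKM in control, 2.32 to 24.1 with STZ and 0.93 to 10.8 in the other groups, and Apob and Serpina1a were below 0.1 FPKM in every library. Cyp2e1 made up most of the high sums, at 1.59 to 22.48 FPKM with STZ and 5.19 to 10.26 with the control transplant, against 0.91 to 2.74 in control. The 6 kidney tubule markers summed to 5.63 to 7.93 FPKM in control, 3.13 to 3.89 with AOS, 2.91 to 32.8 with STZ, 2.38 to 3.31 with STZ+AOS, 4.17 to 37.8 with the AOS transplant and 3.78 to 7.23 with the control transplant. Of these, Kap was at 33.4 FPKM in AOS transplant replicate 3 and listed at 0 in the other 17 libraries, and Aqp2 ran from 2.12 to 31.85 FPKM with STZ. Adipose markers summed to 15.4 to 30.0 FPKM in control, 17.7 to 159 with STZ, 60.1 to 83.4 with the control transplant and 16.3 to 53.9 in the other groups. The epididymis marker Crisp1 ran from 0.15 to 158.77 FPKM in control, 0.99 to 255.65 with the control transplant and 0.05 to 13.04 elsewhere. The part of these tissues in the Bhmt levels was not tested.

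Among 14159 other tested genes, the 8 whose log2 levels followed Bhmt most closely over 18 libraries were Ugt1a6b (Pearson r = 0.91), Klk1b24 (0.89), Bpifb5 (0.88), Klk1b21 (0.88), Klk1b27 (0.87), Ephx1 (0.85), Ugt1a6a (0.85) and Itih2 (0.83). Without the 3 STZ libraries r lay between 0.85 and 0.92. Klk1b21, Klk1b24 and Klk1b27 are tissue kallikreins with near-identical copies, and Ugt1a6a and Ugt1a6b are copies of a glucuronosyltransferase gene, so the split of reads within each family is uncertain. Ephx1 encodes microsomal epoxide hydrolase, an enzyme of detoxification. Of the Leydig list, Cyp17a1, an enzyme of androgen synthesis, came closest at r = 0.82, followed by Star at 0.76 and Cyp11a1 at 0.75, while Nr5a1 had r = 0.03. The libraries share 6 groups, so these values describe likeness and carry no test.

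The genes most like Bhmt did not all fall to the same extent, and not all were below control in every group given STZ. With STZ alone, the means of Ephx1 and Itih2 stood at 100% of control and that of Bhmt at 50.3%. The other listed genes lay between 19.5% and 76.8% of control in that group. With STZ+AOS, Klk1b24 stood at 1.45% and Klk1b21 at 0.922% of their control means, Bpifb5 at 25.3% and Ugt1a6b at 41.5%, against 21.8% for Bhmt. The kallikreins were also low with AOS alone, where Klk1b24 was at 33.7% of control and Bhmt at 85.0%.

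**Figure D4:**
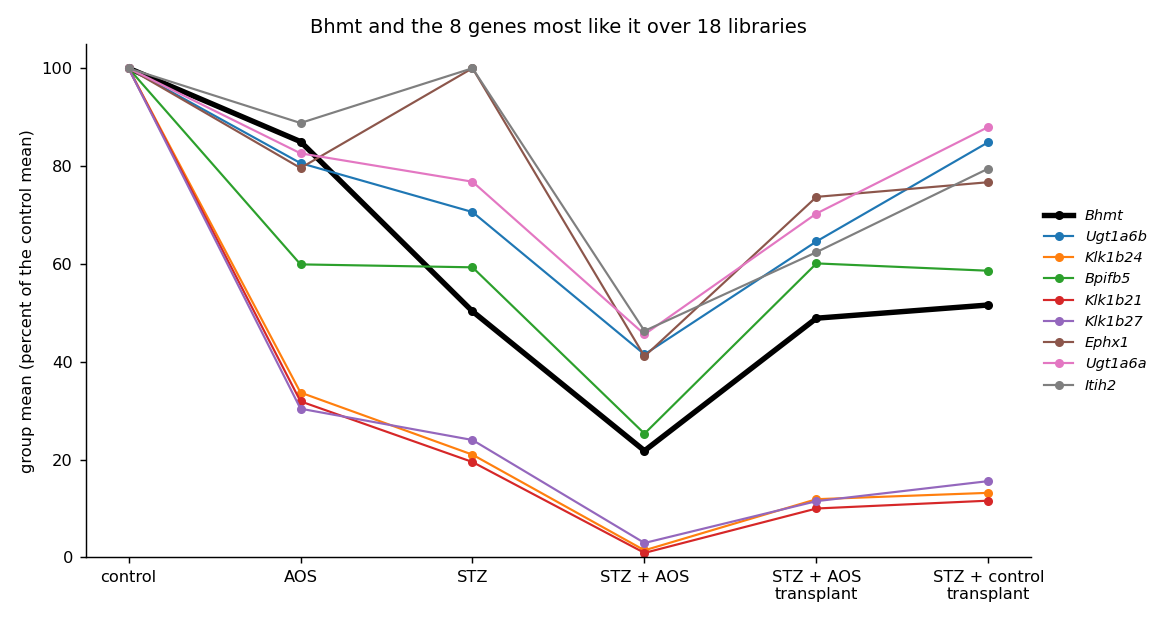
Group means of Bhmt and of the 8 genes most like it, as percent of each gene's control mean (one line per gene joins its 6 groups, which have no order, and each mean is over 3 libraries). STZ+AOS is the lowest group for all 9 genes, and the 3 kallikreins are also low with AOS alone. The 8 genes were picked for their likeness to Bhmt, so nothing is read from the shared lowest group.

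Mtr, the folate-dependent enzyme for the same methyl transfer, was highest in the STZ group. It was at 3.64, 4.89 and 5.57 FPKM in control, 3.43, 3.05 and 4.18 with AOS, and 4.33, 6.95 and 7.84 with STZ. With STZ+AOS Mtr was at 3.71, 4.14 and 3.9 FPKM, with the AOS transplant at 4.41, 3.66 and 4.19, and with the control transplant at 3.6, 4.68 and 4.0. STZ replicates 2 and 3 exceeded every other library, whereas STZ replicate 1 lay inside the range of the other groups.

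The Mtr difference of 0.35 ± 0.17 (SE) between STZ and control in log2(FPKM + 1) did not pass the test (adjusted p = 0.0793). It passed without STZ replicate 1, at 0.57 (adjusted p = 0.00203), and without control replicate 3, at 0.46 (adjusted p = 0.0435). It was smaller without control replicate 1 (0.21, adjusted p = 0.32) and without STZ replicate 3 (0.21, adjusted p = 0.34). With other scalings it was 0.01 under median centring (adjusted p = 0.95) and -0.03 under quantile normalization (adjusted p = 0.849). Compared with STZ, Mtr fell by 0.55 with STZ+AOS (adjusted p = 0.01), by 0.51 with the AOS transplant (adjusted p = 0.0162) and by 0.51 with the control transplant (adjusted p = 0.0178). These 3 calls were lost under quantile normalization, at -0.16, -0.10 and -0.17, under median centring, at -0.21, -0.14 and -0.19, and without STZ replicate 3, at -0.41, -0.36 and -0.36. They were also lost in fits of only the groups compared, where the differences stayed the same and the adjusted p was 0.0549, 0.0716 and 0.0888. The last pair was also lost without STZ replicate 2, at -0.44 and -0.44, and each without 1 of its own transplant libraries (AOS transplant replicate 2, control transplant replicate 1), again at -0.44.

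Mat2a rose with STZ alone, and in the other groups given STZ it lay within or near the control range. The control libraries were at 45.63, 46.79 and 49.9 FPKM, the AOS libraries at 40.21, 44.06 and 42.9, and the STZ libraries at 64.87, 93.5 and 99.5. With STZ+AOS Mat2a was at 46.7, 41.8 and 52.13 FPKM, with the AOS transplant at 47.52, 42.7 and 43.36 and with the control transplant at 45.52, 46.84 and 47.53. All 3 STZ libraries were above the other 15, and STZ replicate 1 was the lowest of the 3. Between STZ and control, groups lay apart in this direction for 42.1% of tested genes.

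Mat2a was 0.82 ± 0.12 (SE) higher with STZ than in control on the log2 scale (limma, adjusted p = 3.54e-05). Of the 4 members tested in this contrast it was the only one called, and 55.2% of all 14164 genes were called. Relative to STZ, Mat2a fell by 0.84 with STZ+AOS (adjusted p = 3.02e-05), by 0.91 with the AOS transplant (adjusted p = 1.23e-05) and by 0.84 with the control transplant (adjusted p = 3.59e-05). The effect of STZ was smaller in mice given AOS than without it, by 0.68 ± 0.17 (SE, adjusted p = 0.00575 for the interaction). In none of the alternatives run was any of these 5 calls lost, but median centring made the differences smaller. They were then 0.48 between STZ and control, -0.50 for STZ+AOS, -0.55 for the AOS transplant and -0.53 for the control transplant against STZ, and -0.38 for the interaction (adjusted p = 0.03). In the other groups, the Mat2a differences from control were -0.16 with AOS, -0.02 with STZ+AOS, -0.09 with the AOS transplant and -0.02 with the control transplant, with adjusted p from 0.709 to 0.994.

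Mat2a followed other genes than Bhmt did. Over 18 libraries r was 0.98 with each of Bcl2l2, which encodes a relative of Bcl2 that protects cells from death, Osbpl11, an oxysterol-binding protein gene, and Nfat5, a transcription factor gene known for its response to high salt. Without the STZ libraries r was 0.70, 0.69 and 0.85. Bcl2l2 stood at 202% of control with STZ, Osbpl11 at 178%, Nfat5 at 160% and Mat2a at 181%. Between Mtr and Mat2a r was 0.84, or 0.45 without the STZ group, and between Bhmt and Mat2a it was -0.04. For Mtr the closest genes, among those whose symbols do not begin with a digit, were Larp4, Ddx17 and Tep1, with r of 0.93 to 0.94.

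Ahcy was listed between 0.15 and 0.77 FPKM, with means of 0.32 ± 0.03 in control and 0.547 ± 0.261 with STZ, and all neighbouring groups overlapped. In its transcripts 77.0% of 50-base stretches also occur elsewhere, 74.1% in Gm4737, an annotated coding gene with almost the same sequence, which was chosen for mention after its values were seen. Gm4737 was at 11.3 ± 0.157 FPKM in control, 16.9 ± 1.58 with STZ and 10.5 to 11.9 as means in the other 4 groups. It was 0.53 higher with STZ than in control on the log2 scale (adjusted p = 3.26e-05). Since reads from these genes could be assigned to either, the level of Ahcy itself is uncertain.

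On the branch to cysteine, Cbs was near the low-value limit. It was at 0.73, 0.8 and 1.13 FPKM in control, 0.39, 0.45 and 0.41 with AOS, and 0.5, 0.86 and 1.02 with STZ. With STZ+AOS Cbs was at 0.48, 0.19 and 0.32 FPKM, with the AOS transplant at 0.27, 0.56 and 0.43 and with the control transplant at 0.43, 1.07 and 0.85. It reached 1 FPKM in 3 libraries, 1 each of the control, STZ and control transplant groups, and it was at most 0.56 FPKM in the 3 groups labelled with AOS. Cbs thus passed the low-value filter only through libraries outside those 3 groups, so its tests against the groups labelled with AOS are not independent of the filter.

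Those 3 groups were below all control libraries, by 0.41 with AOS (adjusted p = 0.478), 0.50 with STZ+AOS (adjusted p = 0.349) and 0.41 with the AOS transplant (adjusted p = 0.633), and none passed. Groups lay apart in this direction for 14.7%, 8.86% and 10% of all tested genes in these contrasts. Cbs fell by 0.43 between STZ and STZ+AOS (adjusted p = 0.0221), a call lost in 7 of 12 alternatives. It was kept in the fit without the low-value filter (adjusted p = 0.0219). In the fit of only the groups compared the difference stayed at -0.43 and the adjusted p was 0.0716. Cbs was -0.08 under median centring, -0.22 under quantile normalization, and -0.33 to -0.42 without STZ replicate 2, STZ replicate 3, STZ+AOS replicate 2 or STZ+AOS replicate 3. Among genes whose symbols do not begin with a digit, those most like Cbs were Glb1l2, Acox3 and Samd9l, at r of 0.85 to 0.89.

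Cth, the enzyme that releases cysteine, showed no call in any contrast. Its means lay between 1.5 ± 0.271 FPKM with STZ+AOS and 2.16 ± 0.807 with STZ, and every neighbouring pair of groups overlapped. Against STZ it was 0.32 lower with STZ+AOS (adjusted p = 0.188).

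Across the contrasts, the count of members called was read against all genes. Between STZ+AOS and STZ, 3 of 5 members fell (Mtr, Mat2a and Cbs), while 43.1% of all genes fell and 55% were called in either direction. Of these members, Cbs passed the low-value filter only through libraries not labelled with AOS. With the AOS transplant 2 of 5 fell, against 44.5% of all genes (56.6% in either direction), and with the control transplant 2 of 5, against 39.9% (51.2% in either direction), in both Mtr and Mat2a. These shares are near the background. Leaving Bhmt aside, 0 of 4 members were called between control and the AOS, AOS transplant or control transplant groups, where the background was 0%, although 883 to 1273 genes had an unadjusted p under 0.05. Between STZ+AOS and control it was 0 of 4 against 0.0424%, between STZ+AOS and AOS 0 of 4 against 0.0141%, and between the transplant groups 0 of 5 against 0%. For the interaction it was 1 of 4 against 35.2%.

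The wider pathway was followed with a list of 126 genes of choline, methionine, folate, polyamine, sulfur and methyl transfer metabolism, all present in the table and 112 of them tested. Between STZ and control 65 rose and 6 fell, so 63.4% were called against 55.2% of all genes, and their median log2 difference was 0.32 against 0.17. The counts depended on the scaling, with 30 rising and 17 falling under quantile normalization and 27 and 29 under median centring. Over all genes they were then 3156 and 4093, and 2678 and 6119. Those scalings moved the median of all genes from 0.17 to -0.06 and -0.17, and that of the list from 0.32 to 0.04 and -0.02. No gene of the list was called between control and AOS, STZ+AOS or either transplant group, although 2 were lower with STZ+AOS when only those groups were fitted.

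**Figure D5:**
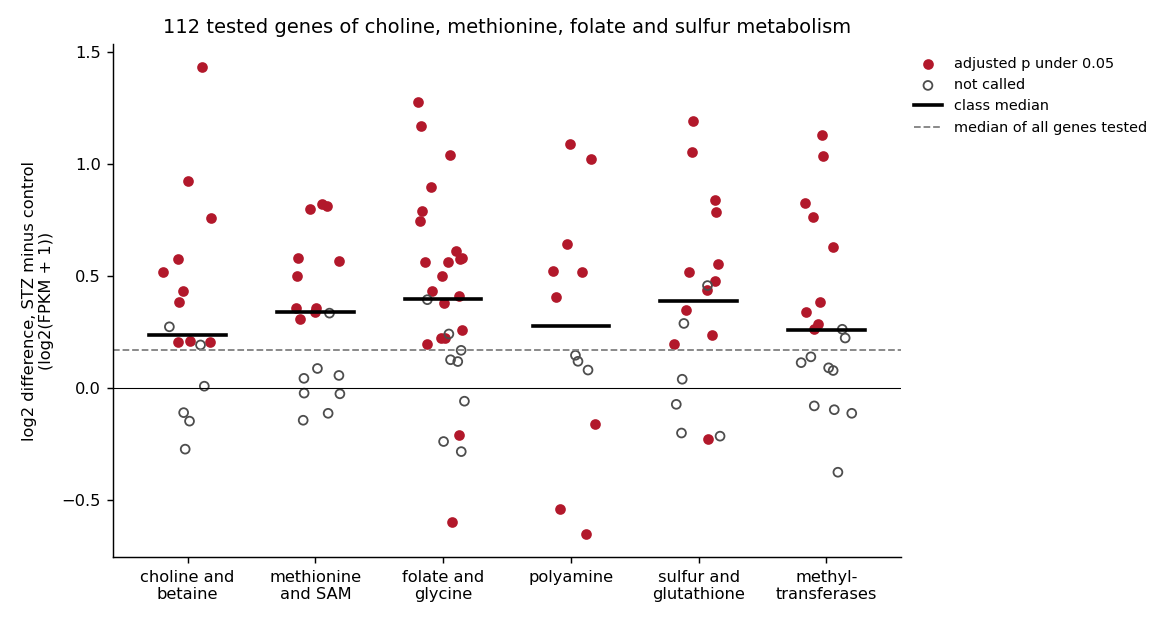
Log2 differences between STZ and control for 112 tested genes of the pathway list in 6 classes (one point per gene, filled where the adjusted p is under 0.05, thick bar for the class median, dashed line for the median of all genes tested). All 6 class medians, from 0.24 to 0.40, lie above the dashed line at 0.17 with the values as deposited. Under median centring the list had 27 genes up and 29 down, against 2678 and 6119 of all genes.

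By class, the share called was 62.5% for choline and betaine, 55.6% for methionine, 72.4% for folate, 75% for polyamines, 66.7% for sulfur and glutathione and 47.4% for methyltransferases, against 55.2% of all genes, so that methionine genes were near that share and methyltransferases below it. Under median centring the rises and falls by class, in that order, were 3 and 3, 4 and 5, 8 and 5, 3 and 5, 4 and 5, and 5 and 6. Over all genes they were 2678 and 6119. The counts that follow are for the values as deposited. In the choline and betaine class 10 of 16 tested genes rose and none fell. Slc44a2, a choline transporter-like gene, went from 13.2 ± 0.495 FPKM in control to 37.5 ± 4.61 with STZ (log2 difference 1.43, adjusted p = 1.12e-08). Aldh7a1, which can oxidize betaine aldehyde to betaine, the Bhmt substrate, rose by 0.92 (adjusted p = 0.000764). Cept1, an enzyme of phosphatidylcholine synthesis, rose by 0.76 and Slc44a3 by 0.58. Chdh, which makes betaine aldehyde from choline, was at 0.28 (adjusted p = 0.0815), and Dmgdh was too low to be tested.

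In the methionine class 10 of 18 rose and none fell. Mat2b, the regulatory partner of Mat2a, went from 6.54 ± 0.875 to 12.3 ± 2.26 FPKM (0.81, adjusted p = 4.44e-05). Adk, which removes the adenosine that Ahcy releases, rose by 0.80, and the methionine salvage genes Mtap and Mri1 by 0.57 and 0.58. Mat1a, the catalytic subunit of liver, was too low to be tested.

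Of 29 folate genes 19 rose and 2 fell. The folate transporter gene Slc46a1 went from 1.99 ± 0.405 to 6.29 ± 1.41 FPKM (1.28, adjusted p = 1.14e-06), and Folr1, a folate receptor gene, from 11 ± 2.24 to 26.5 ± 7.33 (1.17, adjusted p = 7.44e-05). Gart and Atic, which use formylfolate to build purines, rose by 0.57 and 0.75. The genes that fell were Mthfd2l (-0.60), a mitochondrial folate enzyme, and Mthfsd (-0.21).

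Among 12 polyamine genes 6 rose and 3 fell. Smox, spermine oxidase, rose by 1.02, Sms, spermine synthase, by 0.65, and Oaz1, the antizyme that restrains polyamine synthesis in most cells, by 0.41. Oaz3, the antizyme made in spermatids, fell from 3446 ± 50 to 2252 ± 643 FPKM (-0.65, adjusted p = 0.000638). It is itself one of the late spermatid markers, all of which were lower.

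For sulfur and glutathione genes the count was 11 of 18 up and 1 down. Tst and Mpst, both sulfurtransferases, rose by 1.19 and 1.06, and Csad, an enzyme of taurine synthesis, by 0.56. Ggt5, an enzyme of glutathione breakdown, was at 0.417 ± 0.142 FPKM in control and 1.44 ± 0.0473 with STZ. It passed the low-value filter only through the STZ libraries, so its count among the 11 had to follow, and it was the 1 such gene of the list. Of 19 methyltransferases 9 rose and none fell. Gamt, which makes creatine, rose by 1.04, the arginine methyltransferase gene Prmt1 by 0.77 and the DNA methyltransferase gene Dnmt3a by 0.63.

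Against STZ the same list moved the other way in all 3 comparisons, which share the STZ libraries with each other and with the contrast above. With STZ+AOS 69 of 112 fell and 6 rose, or 67% called against 55% of all genes (median -0.40, all genes -0.17). With the AOS transplant 66 fell and 9 rose, or 67% against 56.6% (median -0.38, all genes -0.18). With the control transplant 59 fell and 6 rose, or 58% against 51.2% (median -0.29, all genes -0.15). Of all genes 43.1%, 44.5% and 39.9% fell in these 3 comparisons. The balance depended on the scaling. Under quantile normalization 34 fell and 18 rose with STZ+AOS, 32 and 21 with the AOS transplant, and 29 and 23 with the control transplant. Under median centring falls still led with STZ+AOS (35 against 27), but rises led with the AOS transplant (36 against 28) and the control transplant (31 against 21). The medians of all genes in these comparisons, in the same order, were 0.07, 0.07 and 0.05 under quantile normalization. Under median centring they were 0.18, 0.18 and 0.16. Slc44a2 was at 14.2 ± 0.779 FPKM with STZ+AOS, 13 ± 1.25 with the AOS transplant and 13.6 ± 0.802 with the control transplant, close to its control level. For the interaction of STZ and AOS 41 of 112 were negative and 3 positive, or 39.3% against 35.2% of all genes. The counts were 20 negative and 7 positive under quantile normalization, and 18 and 19 under median centring. Over all genes they were 1963 negative and 2260 positive, and 1860 and 4190. Sertoli and macrophage markers moved in the same direction as the list in these contrasts. All 12 Sertoli and 8 macrophage genes were lower with STZ+AOS than with STZ, against 43.1% of all genes, and their part in it was not tested.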

How the data were processed

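The table held 1 value per gene and library for 18 testis libraries, matched to samples by column title. Its header names no unit. The values were taken as FPKM as deposited by the authors, since they were not whole and the smallest non-zero value fell with gene length (Spearman rho -0.46 over 651 genes). The submitters' processing notes name Bowtie 0.12.2 and the mm10 build, while the counting step, filters and read depth were not given. Values summed to 560938 to 622086 FPKM per library. Because read counts were not used, precision comes only from the spread of 3 libraries a group.

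Values were tested as log2(FPKM + 1) with limma 3.58.1 (trend, R 4.3.3). One model held all 18 libraries with a mean per group, for the 14164 genes with at least 1 FPKM in at least 3 libraries. Tests were two-sided, with Benjamini-Hochberg adjustment over all tested genes within each of 11 contrasts and a threshold of 0.05. Fold changes on this scale understate the change of low genes. On simulated data for STZ against control, 179 of 200 genes changed by 1 on the log2 scale were recovered with 7 false calls among 14164 genes. Same-numbered libraries of different groups did not deviate together (2 of 45 pair correlations over 0.1), so no pairing was assumed.

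The members and lists were chosen with earlier results of these data known. Named genes are the members, up to 4 genes with the smallest p between STZ and control in each pathway class, the genes with the highest Pearson r to a member (8 for Bhmt, 3 for others), the neighbours of Bhmt and Bhmt2, and the cell markers. One gene that this rule names is not reported here. Positions and shared 50-base stretches were read from GENCODE M21. Promoters came from RefSeq on GRCm38.p6, where 6 of 7 members matched. Alternatives were another pseudocount (0.1), no low-value filter, quantile normalization, median centring, a replicate block, fits of only the groups compared, and leaving out each library.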

Additional observations from a re-analysis of the deposited data

Results flagged for a closer look

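Among the members past the low-value filter and tested here, Mat2a was the one whose response to STZ differed with AOS by a test of the difference itself. The STZ effect was 0.82 without AOS and 0.14 with AOS on the log2(FPKM + 1) scale, a difference of -0.68 (interaction, limma, adjusted p = 0.00575). Under median centring the STZ effect without AOS was 0.48 and the difference -0.38 (adjusted p = 0.03). In the same test as deposited, 35.2% of all genes were called. Its cause was not tested.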

How the results depend on the processing

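The 5 Mat2a calls held in every alternative run, whereas Mtr and Cbs calls were lost under some. Quantile normalization left 1 member called in each contrast with STZ (STZ+AOS, AOS transplant, control transplant), as did fits of only the groups compared. Median centring gave 1 in each of these and 2 between STZ and control, and omitting the low-value filter gave 2 for the interaction. Leaving out each library in turn gave 1 to 2 members between STZ and control, 1 to 4 for STZ+AOS and for the AOS transplant against STZ, and 1 to 3 for the control transplant against STZ. The number of all genes called also moved with the setting, so nothing is read from these member counts. Between STZ and control 7823 genes were called as deposited and 5132 with only those groups. Quantile normalization gave 3156 higher and 4093 lower there, and median centring 2678 and 6119. All-gene counts are not given here for each fit that left out a library. The replicate block left the counts of members called as they were (1 for STZ against control, 3 for STZ+AOS against STZ), as the numbers did not pair the samples (r from -0.205 to 0.201).

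Some differences changed sign. Under quantile normalization Mtr was -0.033 and Cth -0.168 for STZ against control, Cth 0.068 for STZ+AOS against STZ, and Mtr 0.119 and Cth 0.012 for the interaction. Under median centring Cth was -0.142 for STZ against control and 0.031 for STZ+AOS against STZ, Cbs 0.033 for the AOS transplant against STZ, and Mtr 0.072 for the interaction. Leaving out 1 library at a time, Bhmt ranged from -0.468 to 0.581 for the AOS transplant against STZ, from -0.400 to 0.648 for the control transplant against STZ, and from -0.187 to 0.006 between the transplants. The cause was not tested. The count of all genes called between STZ and control fell from 7823 to 5132 when only those groups were fitted, and from 7786, 8011 and 7257 to 4944, 5225 and 4184 for STZ+AOS, AOS transplant and control transplant against STZ. Between STZ+AOS and control it was 6, 12 under median centring and 76 with only those groups. Read depth is unknown, so levels under 1 FPKM, as in Bhmt2, Ahcy and Cbs, carry an unknown counting error.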
